A study of Mus musculus with 7 samples.

Results

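The cells described here are macrophages of GL261 glioma that carried many transcripts of type I interferon target genes. They were chosen from the deposited single-cell matrices by unique molecular identifiers (UMIs, each standing for 1 captured transcript). A barcode qualified with at least 10 UMIs of Rsad2, Ifit2 and Ifit3 together and at least 5 UMIs of the macrophage and monocyte lysozyme Lyz2. It also had at most 1 UMI of Nos2, at most 1 UMI of the microglial genes P2ry12, Tmem119, Fcrls and Sall1 together, and 0 UMIs of Cd3e, Cd3d, Cd3g, Flt3 and Mki67. Of 41033 barcodes in 7 libraries, 40416 were kept for having 300 or more genes and no more than 10% of UMIs from mitochondrial genes, and 1201 of these (2.97%) were interferon-responsive macrophages. A further 8404 barcodes met every criterion except the interferon sum and are called other macrophages, so that 12.5% of 9605 macrophages passed.

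GL261 is a mouse glioma line grown in the brain, and leukocytes were sorted from the tumour-bearing left hemisphere as CD45+ DRAQ7- cells, that is, intact cells with the common leukocyte antigen. All mice were wild type (WT) females aged 8 to 9 weeks, and each library pooled 5000 cells from each of 2 mice at day 21, which gives 14 mice in all. The analysed groups were PT2385 alone (2 libraries), the combination of PT2385 with immune checkpoint blockade (2 libraries), checkpoint blockade alone (ICB, 2 libraries) and untreated mice (1 library). PT2385, an inhibitor of hypoxia-inducible factor 2 alpha, was given at 10 mg/kg from day 7, and ICB consisted of antibodies to PD-1 and TIM-3. The labels state 21 days of dosing although tumours were taken at day 21, and they describe a vehicle and isotype antibodies without stating which of these the untreated mice received. A second untreated pool is not analysed here, so every value for untreated mice is a single library, and replicates are pools of mice. The replicate error therefore includes differences between pools of mice but not between single mice.

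Type I interferons bind the receptor chains IFNAR1 and IFNAR2 and act through the kinases JAK1 and TYK2. A complex of transcription factors that includes STAT2 and IRF9 then binds an interferon-stimulated response element in target gene promoters. The targets include effectors that bind or degrade viral RNA, sensors of RNA and DNA, brakes such as USP18 and SOCS1, and chemokines such as CXCL10, which draws T cells bearing CXCR3. Interferon gamma from T and NK cells acts on an overlapping set that includes guanylate-binding proteins, immunity-related GTPases and antigen-presentation genes. In tumours, monocytes that enter from blood lose Ly6c2 and gain macrophage genes such as the C1q genes, and cells at any step of this path can carry an interferon response.

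The motif of that element was present in the promoters of some, not all, of the genes by which these cells stand out. Below are the 250 bases before the RefSeq start (assembly GRCm38.p6), written 5′ to 3′ on the gene's strand, for the 3 gate genes and for targets that lead the results, with and without a match. The motif searched was GAAA, then any 2 bases, then GAAA, on either strand (read on the other strand as TTTC, any 2 bases, TTTC), overlaps included, and matches are in capitals. Rsad2 encodes viperin, an antiviral radical enzyme. Ifit3 and Ifit1 encode RNA-binding antiviral proteins, Isg15 a ubiquitin-like modifier, and Cxcl10 the chemokine. Ifit2, a gate gene of the same family, and Cmpk2, the gene with the largest fold outside the gate, had no match, nor did Lyz2, a gene that both classes of macrophage express. The windows are chr12:26456453-26456702 (minus strand) for Rsad2, chr19:34550444-34550693 (plus) for Ifit2, chr19:34583279-34583528 (plus) for Ifit3, chr19:34640639-34640888 (plus) for Ifit1, chr4:156200819-156201068 (minus) for Isg15, chr5:92348890-92349139 (minus) for Cxcl10, chr12:26468965-26469214 (plus) for Cmpk2 and chr10:117282273-117282522 (minus) for Lyz2.
Rsad2: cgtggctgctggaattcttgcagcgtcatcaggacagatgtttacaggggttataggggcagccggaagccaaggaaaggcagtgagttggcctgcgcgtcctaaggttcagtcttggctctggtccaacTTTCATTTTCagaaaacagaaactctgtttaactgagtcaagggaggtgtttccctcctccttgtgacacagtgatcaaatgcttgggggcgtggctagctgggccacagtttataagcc
Ifit2: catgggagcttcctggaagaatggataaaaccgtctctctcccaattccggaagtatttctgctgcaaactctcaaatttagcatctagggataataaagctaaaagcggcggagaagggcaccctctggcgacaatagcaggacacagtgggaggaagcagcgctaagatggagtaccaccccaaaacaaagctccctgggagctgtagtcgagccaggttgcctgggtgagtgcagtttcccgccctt
Ifit3: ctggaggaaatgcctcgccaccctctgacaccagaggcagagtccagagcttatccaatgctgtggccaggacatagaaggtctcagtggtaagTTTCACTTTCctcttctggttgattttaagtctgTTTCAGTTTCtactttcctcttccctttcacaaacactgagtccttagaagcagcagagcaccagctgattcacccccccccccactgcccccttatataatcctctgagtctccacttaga
Ifit1: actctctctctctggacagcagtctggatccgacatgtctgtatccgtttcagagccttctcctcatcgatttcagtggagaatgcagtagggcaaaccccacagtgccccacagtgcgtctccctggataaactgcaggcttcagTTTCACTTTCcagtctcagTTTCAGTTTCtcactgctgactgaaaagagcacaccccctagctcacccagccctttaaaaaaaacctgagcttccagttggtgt
Isg15: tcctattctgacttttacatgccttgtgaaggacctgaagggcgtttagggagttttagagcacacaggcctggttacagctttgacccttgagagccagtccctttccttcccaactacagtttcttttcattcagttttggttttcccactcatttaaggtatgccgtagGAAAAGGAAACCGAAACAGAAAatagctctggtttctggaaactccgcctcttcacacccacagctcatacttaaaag
Cxcl10: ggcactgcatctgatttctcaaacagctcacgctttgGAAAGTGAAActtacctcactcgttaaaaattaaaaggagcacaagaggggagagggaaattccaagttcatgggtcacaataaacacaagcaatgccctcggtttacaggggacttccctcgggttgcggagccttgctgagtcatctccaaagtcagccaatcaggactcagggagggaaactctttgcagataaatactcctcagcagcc
Cmpk2: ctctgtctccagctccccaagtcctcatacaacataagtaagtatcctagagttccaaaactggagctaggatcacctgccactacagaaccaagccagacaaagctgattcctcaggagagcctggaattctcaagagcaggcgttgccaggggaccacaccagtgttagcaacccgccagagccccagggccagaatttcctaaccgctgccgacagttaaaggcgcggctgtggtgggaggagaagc
Lyz2: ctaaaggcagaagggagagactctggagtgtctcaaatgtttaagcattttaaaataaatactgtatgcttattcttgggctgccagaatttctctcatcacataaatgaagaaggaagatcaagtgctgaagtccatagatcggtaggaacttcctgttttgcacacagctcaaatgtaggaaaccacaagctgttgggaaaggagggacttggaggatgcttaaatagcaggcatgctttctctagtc

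The match began 120 bases before the start in Rsad2, 156 and 122 bases before it in Ifit3, 104 and 85 bases before it in Ifit1 and 213 bases before it in Cxcl10. In Isg15, 3 matches overlapped in one run that began 78 bases before the start. The windows of Oasl1, Slfn4, Ms4a4c, Cxcl9 and Ccl12, which are described below, held no match either. Over the RefSeq table, the motif occurred in 978 of 32851 promoters (2.98%) and in 936 of 27025 genes (3.46%). It occurred in 20 of 39 genes of the antiviral effector list with a listed promoter (51.3%), in 10 of 16 of the interferon gamma list (62.5%), in 2 of 17 sensors and transcription factors, in 0 of 9 monocyte genes and in 0 of 7 CC chemokines. A match describes letters and is not a measured binding site.

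The libraries held 59839154 to 81960504 UMIs each, and 3 to 17 barcodes were shared by any pair of libraries over 21 pairs. Macrophages of either class made up 11.9% to 33.9% of kept barcodes in a library. Scored doublets were the barcodes with the highest doublet scores, in a number fixed in advance at 0.8% for each 1000 barcodes of a library. They numbered 1948 over all libraries, so their total is not a measured rate, and an automatic threshold on the score called 11. Scored doublets made up 1.67% of the interferon-responsive and 1.82% of the other macrophages. The sum of the T cell marker list was 5.3 to 19.7 counts per 1000000 UMIs (CPM) in the summed interferon-responsive cells, in which 3 of its 10 genes, whose Cd3 members the gate fixes, were at 0. Free RNA can add interferon UMIs to any droplet. T cells were taken here as barcodes with at least 3 Cd3 UMIs, under 5 Lyz2 UMIs and at most 1 UMI of the microglial genes. Of these, 1.29% to 4.67% per library reached an interferon sum of 10, at median depths of 7166 to 8618 UMIs. The Lyz2 limit leaves out droplets that also hold much macrophage RNA. Of all barcodes with at least 3 Cd3 UMIs, 4.01% to 10.3% per library reached the sum. Over all libraries 23.4% of those barcodes had 5 or more Lyz2 UMIs. The part of free RNA in the interferon sums was not tested.

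The macrophage label was checked against other transcripts of the cells. Lyz2 itself, which the gate used, stood at 9990 to 12731 CPM. C1qa, a complement subunit made by tissue macrophages, was found at 1756 to 2757 CPM in the 7 libraries, and Adgre1, which encodes the F4/80 antigen, at 197 to 276 CPM. Ly6c2, the antigen of inflammatory monocytes, was present too, at 1101 to 2450 CPM, and 88.2% to 95.9% of the cells per library had at least 1 of its UMIs while 60.2% to 77.1% had at least 1 of C1qa. Monocyte and macrophage transcripts therefore occur in the same gate, and the name macrophage covers a range between them. 

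The interferon sum had no gap at the threshold. The median sum was 17 and the highest 159. There were 322 cells just inside at sums of 10 to 12, and 560 other macrophages just outside at sums of 7 to 9. Of the other macrophages 39.2% had a sum of 0. Of 3770 kept barcodes with a sum of at least 10, 1251 failed on microglial genes, 769 on Cd3 genes, 742 on Nos2, 690 on Mki67, 441 on Lyz2 and 236 on Flt3, and a barcode could fail on more than 1.

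**Figure D1:**
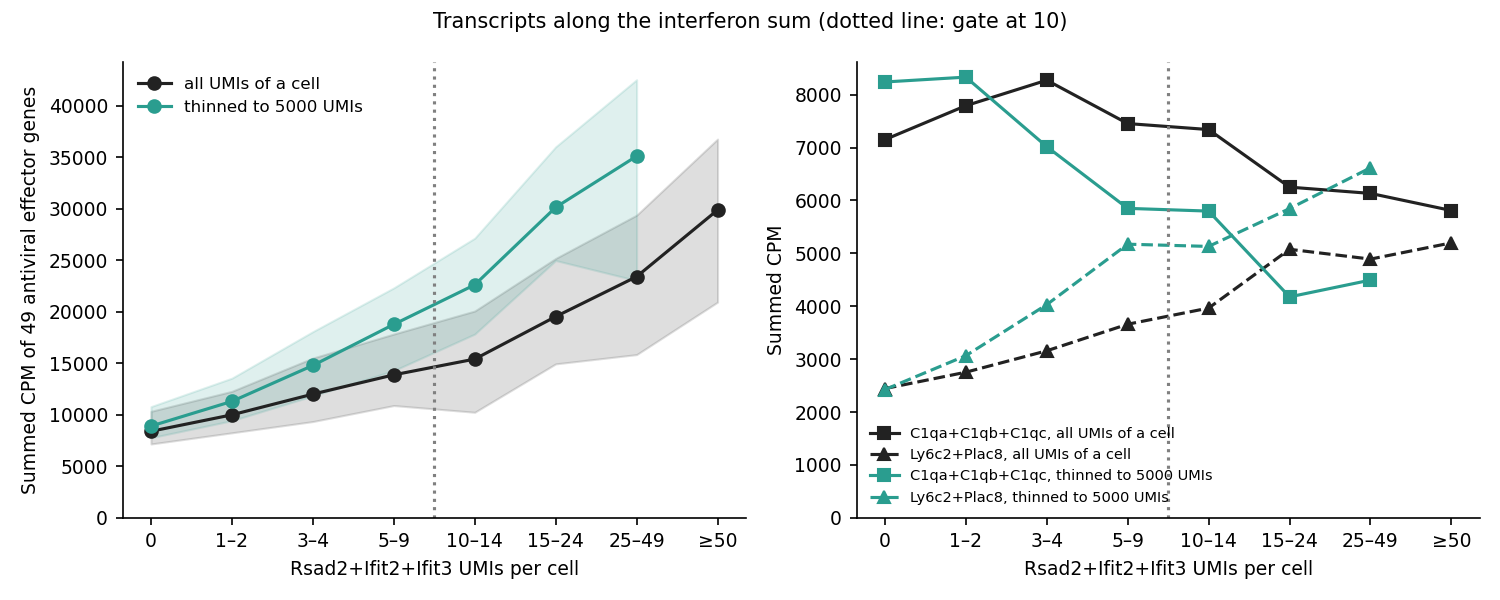
Summed CPM of 49 antiviral effectors (left; line, mean of libraries; band, lowest to highest library) and of C1q genes and Ly6c2 plus Plac8 (right; means) in macrophages binned by Rsad2, Ifit2 and Ifit3 UMIs, with all UMIs and with cells thinned to 5000 UMIs. The effector line climbs through the threshold at 10 without a step, to 29863 CPM at sums of 50 or more with all UMIs.

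The other interferon targets followed the same gradient. The summed level of the 49 antiviral effector genes in the files, none of which chose the cells, averaged 29863 CPM over libraries in cells with sums of at least 50, 15401 CPM at sums of 10 to 14, 13873 CPM at sums of 5 to 9 and 8397 CPM at a sum of 0. The summed C1q genes were at 5809 CPM at sums of at least 50, at 8273 CPM at sums of 3 to 4, their highest, and at 7149 CPM at a sum of 0. Ly6c2 plus Plac8, a pair of monocyte genes, had 5198 CPM at the highest sums and 2443 CPM at 0. Median depth differed along the gradient as well, with 13446 UMIs at sums of 50 or more and 9265 UMIs at 0, and its part in the gradient was not tested.

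Among the interferon-responsive cells of single libraries, the 3 gate genes per 10000 UMIs of a cell and the effectors per 10000 UMIs went together, with Spearman's rho of 0.488 to 0.764 across cells. The rho of the gate genes with a set of 6 monocyte genes that includes Ly6c2, Plac8 and Vcan was 0.192 to 0.391, and with 7 macrophage genes (C1qa, C1qb, C1qc, Apoe, Adgre1, Ms4a7 and Mertk) -0.411 to -0.128. The monocyte and macrophage genes went against each other, with rho of -0.783 to -0.518. The gate genes per 10000 UMIs also went against the depth of the cell, with rho of -0.595 to -0.439. Cells of 1 library share its free RNA, and these measures share the depth of the cell as their divisor, so the values are descriptions with no test.

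Compared with other macrophages of the same library, interferon-responsive macrophages had higher levels of the antiviral effectors and of other genes, among them chemokines and monocyte genes. Because the interferon sum chose the cells, the following folds are descriptions with no test. Among 6023 genes with enough counts to compare, 95 (1.58%) were at least 2-fold higher in mean CPM and higher in 7 of 7 libraries, and 4 (0.0664%) were at least 2-fold lower and lower in 7 of 7. Of the 95 genes, 35 are on the antiviral effector list. At any fold, 567 genes (9.41%) were higher and 856 (14.2%) lower in 7 of 7 libraries. In thinned cells, gated anew on the thinned counts, 201 genes were at least 2-fold higher and 45 at least 2-fold lower by the same rule, among 6100 compared. The median fold of all compared genes was 0.95. Libraries of each class differ in depth per cell, with medians of 9031 to 14623 UMIs in interferon-responsive and 7957 to 12102 UMIs in other macrophages.

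Enzymes and RNA-binding proteins of the antiviral state led the list. Cmpk2, a mitochondrial nucleotide kinase encoded beside Rsad2, was at 82.1 ± 23.98 CPM in interferon-responsive and 7.97 ± 3.2 CPM in other macrophages (SD, n = 7 libraries each), a 10.3-fold difference. Ifit1 was at 234 ± 52.7 CPM in interferon-responsive and 28.9 ± 6.60 CPM in other macrophages, 8.10-fold. Ifit3b was 8.24-fold, Ifit1bl1 5.92-fold and Oasl1, a member of the oligoadenylate synthetase family, 5.05-fold higher. Copies within the Ifit, Slfn, Ifi200, Trim30 and Gbp families are close in sequence, so the split of reads between copies is uncertain.

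Genes that act on other cells were among the 12 largest folds, counted without Riken and Gm-numbered genes. Tnfsf10, which encodes the death ligand TRAIL, was 4.83-fold higher and Cxcl10 4.34-fold higher, with 1334 ± 775 CPM in interferon-responsive and 307 ± 92.3 CPM in other macrophages (SD, n = 7 each). Usp18, which removes ISG15 from proteins and brakes the interferon receptor, was 4.42-fold higher, and the DNA-binding family member Ifi208 4.77-fold, Trim30c 4.14-fold and Slfn9 3.84-fold. Vcan, the proteoglycan versican of classical monocytes, was of the monocyte list and also among these 12, at 55.0 ± 34.3 CPM in interferon-responsive and 13.4 ± 7.54 CPM in other macrophages, 4.11-fold.

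By role, the effectors stood apart most. Of 47 compared effectors, 35 were at least 2-fold higher and 46 were higher in 7 of 7 libraries, against 9.41% of all compared genes, with a median fold of 2.44. Of 17 sensors and transcription factors, 5 were at least 2-fold higher and 11 were higher in 7 of 7, with a median of 1.36. The RNA sensors Ifih1 (3.29-fold) and Ddx58 (2.72-fold) and the factor Stat2 (2.03-fold) were among the 5. Transcripts of the interferons themselves were at or near 0, with 0.96 to 2.83 CPM summed over 13 genes in the interferon-responsive cells and 10 of the 13 at 0. The receptor genes Ifnar1 and Ifnar2 stood at 0.898-fold and 0.956-fold.

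Genes shared with interferon gamma were higher by less. Of 21 compared, 16 were higher in 7 of 7 libraries with a median of 1.69, including the GTPase genes Gbp5 (2.50-fold), Igtp (1.98-fold) and Iigp1 (1.92-fold). Over all compared genes 9.41% were higher in 7 of 7. Il15, a cytokine that sustains NK and memory T cells, was 2.87-fold and its presenting receptor Il15ra 1.90-fold higher, and Socs1, a feedback brake on JAK kinases, was 2.15-fold higher. Cd274, which encodes PD-L1, was 1.39-fold higher in mean CPM and higher in 7 of 7 libraries.

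The monocyte list leaned higher and the macrophage and class II lists lower. Of 14 monocyte genes, 9 were higher in 7 of 7 libraries, with a median fold of 1.37. Of 18 macrophage genes, 5 were lower in 7 of 7 and 1 higher, with a median of 0.895, and of 10 MHC class II genes 8 were lower in 7 of 7, with a median of 0.865. Over all compared genes 14.2% were lower and 9.41% higher in 7 of 7. The 4 genes at least 2-fold lower were the neutrophil transcripts S100a8, S100a9 and Retnlg and the lectin gene Mgl2. S100a9 is an example in which 1 library decides the mean, since other macrophages of ICB pool 1 had 2783 CPM and those of the other 6 libraries 14.3 to 759 CPM.

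**Figure D2:**
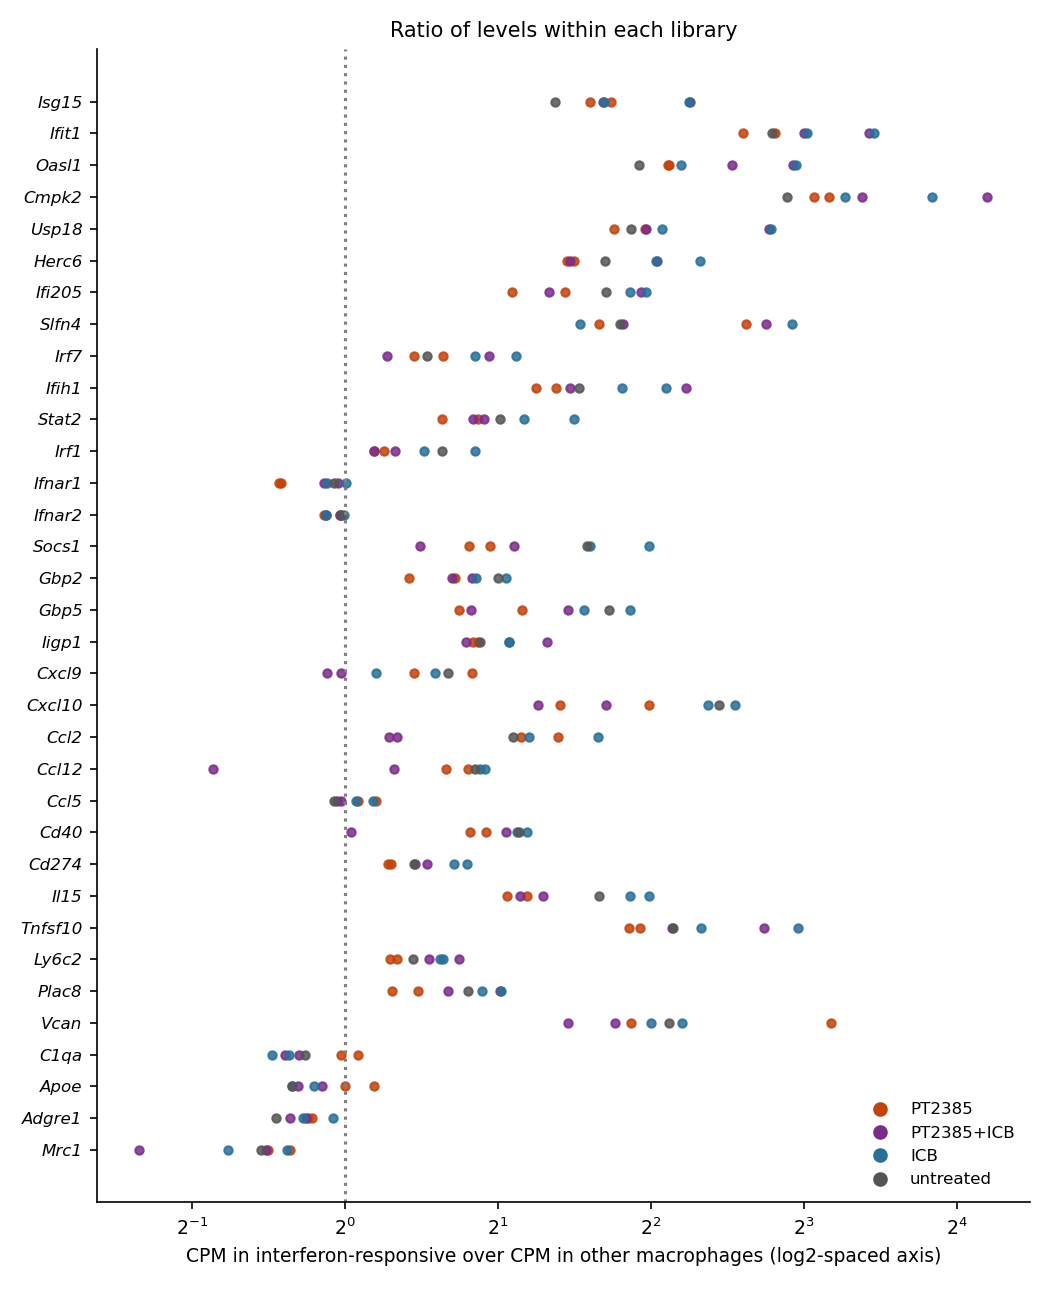
CPM in interferon-responsive over CPM in other macrophages for named genes, 1 point per library coloured by treatment, on a log2-spaced axis with a dotted line at a ratio of 1. Cmpk2 and Ifit1 lie far to the right in each of the 7 libraries, while Ifnar1, Ifnar2 and Adgre1 lie at or near the line.

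The share of macrophages that were interferon-responsive was 10.9% (128 cells) and 9.63% (144 cells) in the PT2385 pools and 9.95% (73 cells) and 10.0% (65 cells) in the combination pools. It was 21.4% (221 cells) and 10.2% (200 cells) in the ICB pools and 14.5% (370 cells) in the untreated library. The exact 95% binomial intervals, which cover counting error only, were 18.9% to 23.98% in ICB pool 1 and 13.2% to 15.9% in the untreated library. The 4 libraries with PT2385 lay close together, the 3 without it were spread, and ICB pool 2 lay among the PT2385 libraries, so the groups overlapped. The Nos2 limit left out unequal numbers. Macrophages that met every limit but Nos2, at any interferon sum, numbered 750 and 714 in the PT2385 pools and 58 and 221 in the combination pools. They numbered 20 and 62 in the ICB pools and 215 in the untreated library. Leaving ICB pool 1 aside, 12.7% to 24.1% of them per library reached a sum of 10. Shares and gene levels here cover cells within the Nos2 limit, and its part in the treatment differences was not tested.

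With PT2385 the share averaged 10.1% ± 0.550 (SD, n = 4) and without it 15.3% ± 5.64 (SD, n = 3), a difference of -5.21 percentage points. A two-sided exact permutation test over libraries gave p = 0.114 (0.229 adjusted over both treatments), and 0.0571 is the smallest p that this design can give. With ICB the share averaged 12.9% ± 5.65 (SD, n = 4) and without it 11.7% ± 2.53 (SD, n = 3), a difference of 1.20 points with an exact permutation p of 0.971. The ICB difference was -1.63 points without ICB pool 1 (exact permutation p = 0.400), so 1 library sets its direction.

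Depth can touch this share, since the gate counts raw UMIs, and its part was not tested. Interferon-responsive cells had median depths of 14623 and 12636 UMIs in the PT2385 pools, 14587 and 14375 in the combination pools, 10666 and 10884 in the ICB pools and 9031 in the untreated library. After each cell was thinned to 5000 UMIs, leaving out 895 to 1932 shallower barcodes per library, the shares were 3.27% and 2.94% with PT2385, 3.28% and 2.96% with the combination, 11.0% and 4.73% with ICB and 6.85% in the untreated library. Every gate limit was applied to the thinned counts. Barcodes over the Nos2, microglial, Cd3, Flt3 or Mki67 limits before thinning could therefore enter. More macrophages of either class passed in each library, such as 2994 against 2552 in the untreated library and 912 against 647 in combination pool 2. The thinned results thus differ in the mix of cells as well as in depth. The 4 PT2385 libraries were then all below the 3 others, at 3.11% against 7.54% on average, with p = 0.0571 by the exact permutation test. A gate scaled to depth (10 interferon UMIs per 10000 UMIs of the cell, an alternative added after the data were seen) gave 7.95% against 16.7%, also without overlap and with p = 0.0571 by the exact test.

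**Figure D3:**
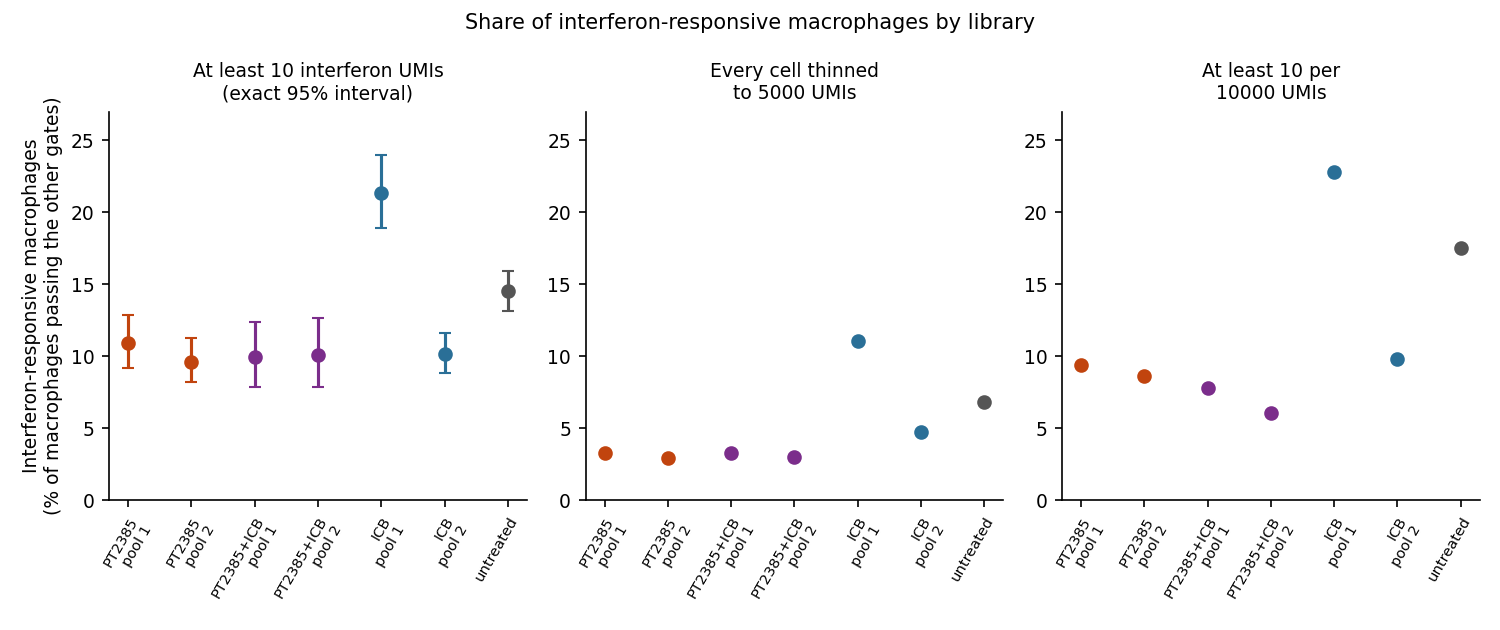
Interferon-responsive cells as a percentage of macrophages in each library with the raw gate (bars, exact 95% binomial intervals), after thinning to 5000 UMIs and with the gate scaled to depth. The PT2385 and combination pools lie between 9.63% and 10.9% with the raw gate, where ICB pool 2 lies among them, and below each library without PT2385 in both other panels.

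Gene levels inside the interferon-responsive cells were then compared between treatments. Counts were summed over the cells of each library and tested with edgeR's quasi-likelihood test, with Benjamini-Hochberg adjustment over all genes tested and a threshold of 0.05. The PT2385 effect compares the 4 libraries with the drug with the 3 without it, with ICB as a second term. Fold changes are on the log2 scale, and negative values mean lower with PT2385.

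PT2385 changed 681 of 9666 tested genes (7.05%), of which 211 rose (2.18%) and 470 fell (4.86%). The median log2 fold change of all tested genes was 0.02. Antiviral effectors, monocyte genes and several chemokines were lower, while the chemokine Ccl5, a few interferon gamma-type GTPases, C1q genes and Mertk were higher. Without the single untreated library 63 genes passed (34 rose, 29 fell). The count was also 286 without PT2385 pool 1, 321 without PT2385 pool 2 and 280 without combination pool 2.

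Depth also differed between the libraries with and without PT2385 in this comparison. A deeper cell can reach 10 UMIs at a lower interferon level, and the part of depth in the calls was not tested. Thinned sums held 27 to 205 interferon-responsive cells per library, against 65 to 370 with all UMIs. With thinned cells 114 of 4639 tested genes passed (49 rose, 65 fell, 95 of them also called above), and with the gate scaled to depth 217 of 8732 passed (71 rose, 146 fell, 195 shared). The PT2385 groups of libraries did not overlap for 608 of the 681 called genes, and they did not overlap for 1895 (19.6%) of all tested genes.

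**Figure D4:**
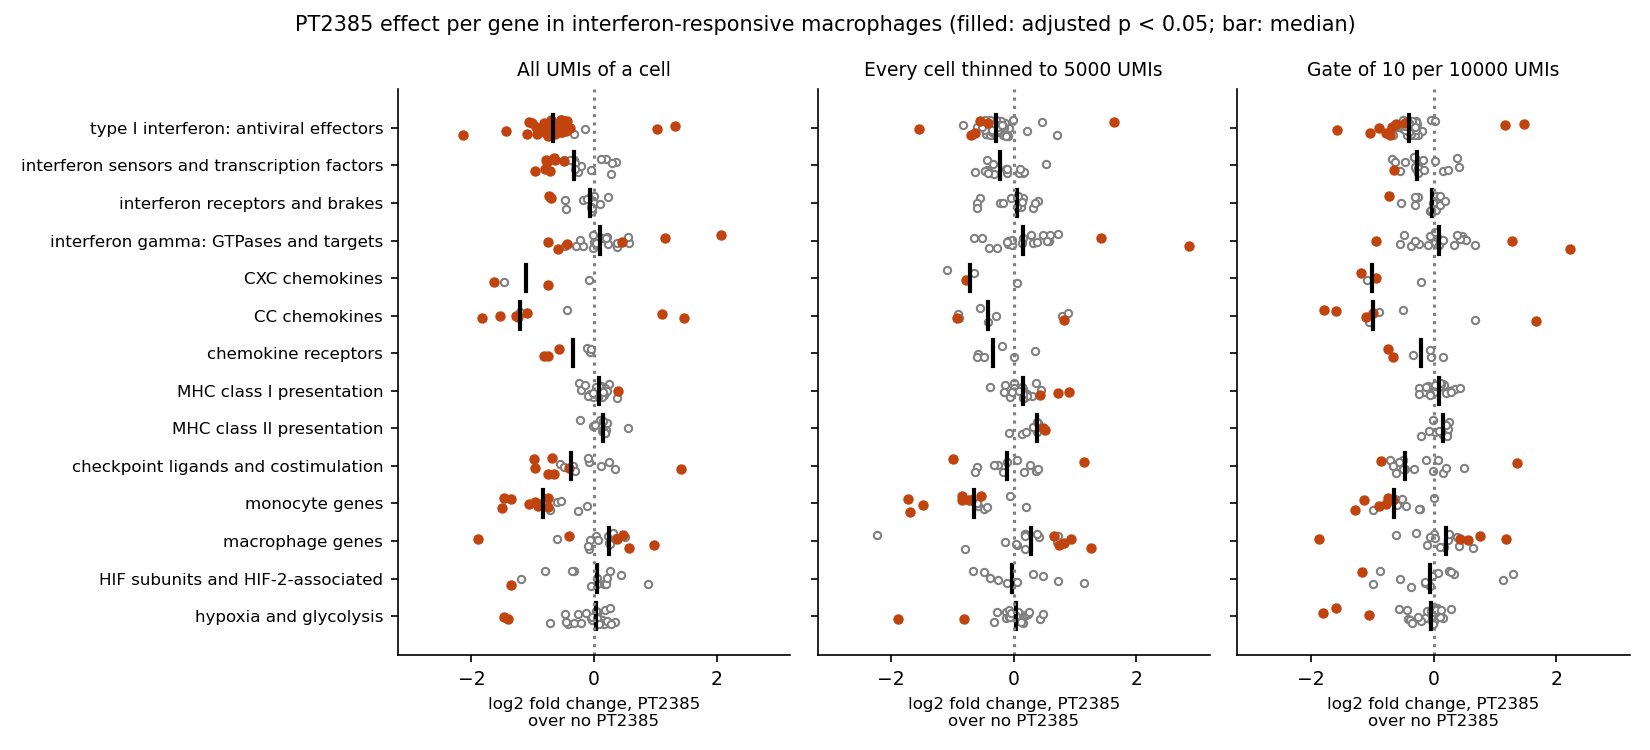
log2 fold change with PT2385 in interferon-responsive macrophages, 1 point per tested gene (filled, adjusted p under 0.05), by gene list with the median as a bar, for all UMIs, thinned cells and the gate scaled to depth. The effector median is -0.67 with all UMIs, -0.29 in thinned cells and -0.40 with the scaled gate.

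Of 47 tested antiviral effectors, 40 fell and 2 rose, with a median of -0.67. The summed list was 14600 and 15774 CPM in the PT2385 pools and 18812 and 15071 CPM in the combination pools, against 25709 and 23555 CPM in the ICB pools and 24239 CPM in the untreated library. No PT2385 library reached the lowest of the other libraries. In other macrophages the summed list was lower with PT2385 as well, at 8605 to 9540 CPM against 10399 to 13287 CPM without it. In thinned interferon-responsive cells 5 fell (Ifi27l2a, Ifitm3, Mndal, Slfn4 and Ms4a4c) and 1 rose (median -0.29). With the depth-scaled gate 8 fell, these 5 with Isg20, Ifi205 and Phf11d, and 2 rose (median -0.40). The extent of the effector fall thus differed between the gates, and the reason was not tested. Without the untreated library 2 fell and 1 rose, with a median of -0.57.

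Isg15 illustrates this. Its level was 981 and 628 CPM with PT2385 and 1150 and 741 CPM with the combination, against 1470 and 1445 CPM with ICB and 1605 CPM in the untreated library. The groups did not overlap, and the log2 fold change was -0.82 ± 0.17 (SE, adjusted p = 0.0196). In thinned cells it was -0.28 (adjusted p = 0.464) and with the scaled gate -0.50 (adjusted p = 0.213). Oasl1, Cmpk2 and Usp18 also fell, by 0.81, 0.68 and 0.70 on the log2 scale, and none of these passed in thinned cells or with the scaled gate. For Ifit1, at -0.49 ± 0.14 (adjusted p = 0.0596), the call was not made, and its value in thinned cells was 0.21.

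Other effectors held their fall in each gate. Ms4a4c, a membrane protein of the CD20-like family in the effector and monocyte lists, was at 583 and 693 CPM with PT2385 and 790 and 629 CPM with the combination, against 1520 and 1270 CPM with ICB and 1350 CPM in the untreated library. The highest PT2385 library lay well under the lowest of the others. The log2 fold change was -1.06 ± 0.11 (adjusted p = 0.000911), and it was -0.69 in thinned cells (adjusted p = 0.0107) and -0.89 with the scaled gate (adjusted p = 0.00347). It passed with each of the 7 libraries left out in turn.

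Slfn4, a Schlafen family gene of monocytes, had the largest fall by the naming rule. It stood at 41.2 and 104 CPM with PT2385 and 80.1 and 43.4 CPM with the combination, against 426 and 170 CPM with ICB and 272 CPM in the untreated library. The log2 fold change was -2.14 ± 0.35 (adjusted p = 0.00657), -1.55 in thinned cells and -1.58 with the scaled gate, both past the threshold, but it did not pass without the untreated library (adjusted p = 0.0922). Ifitm3, a membrane protein that blocks virus entry, fell by 0.59 and Mndal, a DNA-binding Ifi200 family member, by 0.92, and both passed with either gate. Isg20, an exonuclease, fell by 1.44 and Ifi205 by 0.95, and these passed with the scaled gate only.

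The effector genes that rose were Gm4951 and Ifi27, and Ifi27 did not pass in thinned cells (adjusted p = 0.371). Gm4951, which encodes an immunity-related GTPase, was at 395 and 430 CPM with PT2385 and 266 and 487 CPM with the combination, against 140 and 132 CPM with ICB and 176 CPM in the untreated library. The groups were apart, with a log2 fold change of 1.32 ± 0.18 (adjusted p = 0.00292). It was 1.64 in thinned cells and 1.48 with the scaled gate, and it passed with each library left out.

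Among sensors and transcription factors, 8 of 21 fell and 0 rose, with a median of -0.33. These were the RNA sensors Ddx58, Ifih1 and Dhx58, the DNA sensor Cgas, the RNA-sensing receptor Tlr3, the adaptor Myd88 and the factors Irf7 and Stat2. Stat2 was at 190 and 232 CPM with PT2385 and 198 and 214 CPM with the combination, against 393 and 330 CPM with ICB and 325 CPM in the untreated library. It fell by 0.78 (adjusted p = 0.00369) and with the scaled gate by 0.64 (adjusted p = 0.0224), while in thinned cells the value was -0.44 (adjusted p = 0.208). No other member passed with the scaled gate and 0 of 16 passed in thinned cells.

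Of 14 receptors and brakes, 2 fell, namely Usp18 and the kinase gene Jak2, and 0 rose. The list median was -0.07. Jak2 was at -0.73, at -0.60 in thinned cells (adjusted p = 0.128) and at -0.73 with the scaled gate (adjusted p = 0.0206).

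Among the interferon targets, Cxcl10 had the smallest adjusted p. It was at 727 and 702 CPM with PT2385 and 647 and 786 CPM with the combination, against 2273 and 2050 CPM with ICB and 2153 CPM in the untreated library. The 4 libraries with the drug were alike, the 3 without it were alike, and the groups were far apart. The log2 fold change was -1.64 ± 0.08 (edgeR quasi-likelihood test, adjusted p = 3.52e-06). It was -0.78 in thinned cells (adjusted p = 0.00123), -1.18 with the scaled gate (adjusted p = 0.00135) and -1.62 without the untreated library (adjusted p = 0.000954). The direction and the call held, while the size was less in thinned cells and with the scaled gate than with the raw gate. Cxcl10 carries a motif match in the promoter shown above.

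**Figure D5:**
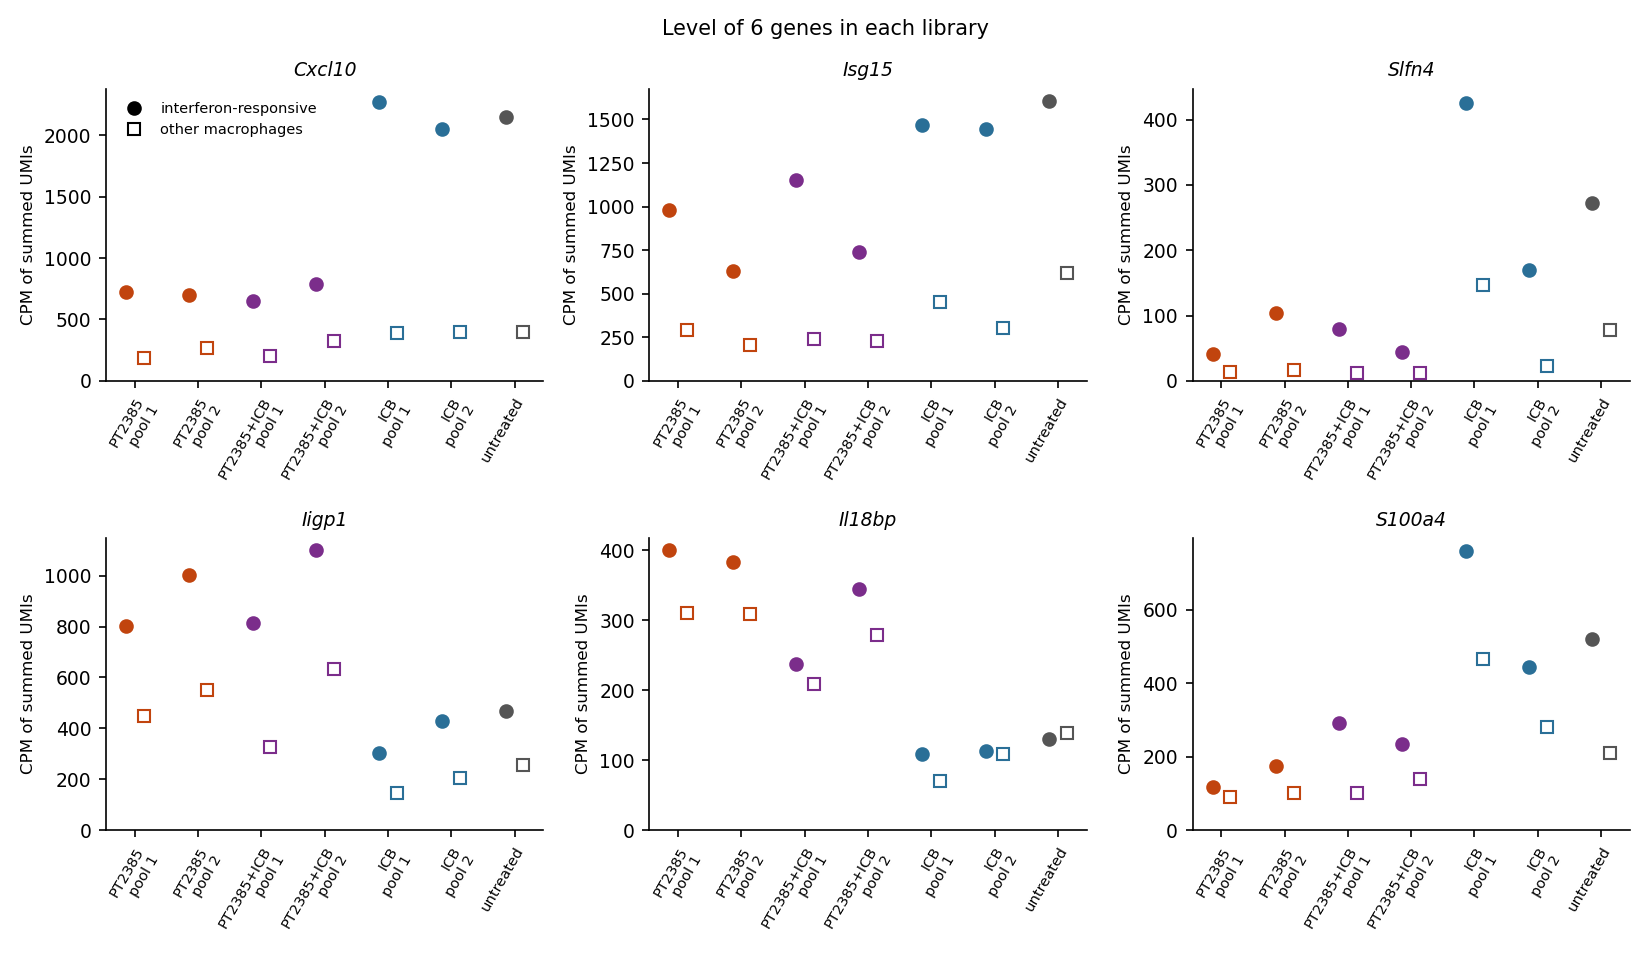
CPM of 6 genes in interferon-responsive (filled circles) and other macrophages (open squares), 1 point of each per library, coloured by treatment. In the interferon-responsive cells Cxcl10 lies between 647 and 786 CPM in the 4 libraries with PT2385 and between 2050 and 2273 CPM in the 3 without it.

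Cxcl9, which binds the same receptor and responds mainly to interferon gamma, was at 943 and 1249 CPM with PT2385 and 724 and 975 CPM with the combination, against 1522 and 1068 CPM with ICB and 1982 CPM in the untreated library. It fell by 0.75 (adjusted p = 0.0135) with overlapping groups, and the value was -0.64 in thinned cells (adjusted p = 0.0534) and -0.93 with the scaled gate (adjusted p = 0.0408). Of 4 tested CXC chemokines 2 fell, and the list median was -1.11.

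Among 9 tested CC chemokines, 5 fell and 2 rose, with a median of -1.20. The summed level of the list was nevertheless higher with PT2385, at 5035 to 6525 CPM against 4070 to 4324 CPM without it. In thinned cells 1 fell and 1 rose (median -0.42), and with the scaled gate 4 fell and 1 rose (median -0.99). Ccl12, a monocyte attractant that binds CCR2, was at 216 and 258 CPM with PT2385 and 129 and 87.8 CPM with the combination, against 638 and 349 CPM with ICB and 563 CPM in the untreated library. It fell by 1.82 (adjusted p = 0.00273) and passed with the scaled gate at -1.78, while the thinned value was -0.55 (adjusted p = 0.295). The related Ccl2 fell by 1.24, and Ccl3 and Ccl4, which attract leukocytes, fell by 1.09 and 1.54. In thinned cells none of these 3 passed (Ccl2 at -0.28, Ccl3 at -0.89 and Ccl4 at -0.92), and with the scaled gate Ccl3 and Ccl4 passed and Ccl2 did not. Ccl9 fell by 1.26 and passed in each gate (-0.92 in thinned cells, -0.99 with the scaled gate).

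The CC chemokines that rose were Ccl5 and Ccl8. Ccl5, an attractant of T cells and monocytes, was at 4834 and 4184 CPM with PT2385 and 3498 and 3296 CPM with the combination, against 686 and 2013 CPM with ICB and 2422 CPM in the untreated library. ICB pool 1 was far below the rest. Its log2 fold change was 1.10 ± 0.28 (adjusted p = 0.0403), it was 0.83 in thinned cells (adjusted p = 0.0349) and 0.67 with the scaled gate (adjusted p = 0.203). Ccl8 was at 1.48 ± 0.33 (adjusted p = 0.0251) with overlapping groups, and ICB pool 1 had 765 CPM while ICB pool 2 had 265. It was at 0.89 in thinned cells (adjusted p = 0.373) and at 1.68 with the scaled gate (adjusted p = 0.0355).

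Of 6 chemokine receptors 3 fell, Ccr1 by 0.81, Ccr2 by 0.75 and Ccrl2 by 0.57. Ccr2, the receptor that takes monocytes out of the marrow, was at 269 and 285 CPM with PT2385 and 476 and 318 CPM with the combination, against 496 and 675 CPM with ICB and 524 CPM in the untreated library. In thinned cells none of the 3 passed (Ccr1 at -0.58, Ccr2 at -0.59 and Ccrl2 at -0.19), and with the scaled gate Ccr1 and Ccr2 passed and Ccrl2 did not.

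The interferon gamma list divided. Of 22 tested genes, 3 rose (Iigp1, Gbp2b and Gbp8) and 3 fell (Gbp5, Gbp9 and Cxcl9), with a median of 0.09. Iigp1, an immunity-related GTPase that acts on parasite vacuoles, was at 803 and 1003 CPM with PT2385 and 812 and 1100 CPM with the combination, against 304 and 428 CPM with ICB and 470 CPM in the untreated library. The groups did not overlap, and its log2 fold change was 1.15 ± 0.17 (adjusted p = 0.00374), 1.42 in thinned cells (adjusted p = 0.000398) and 1.29 with the scaled gate (adjusted p = 0.00140). It passed with each library left out in turn.

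Gbp2b, a guanylate-binding protein gene, was at 142 and 96.4 CPM with PT2385 and 108 and 167 CPM with the combination, against 17.9 and 43.6 CPM with ICB and 28.3 CPM in the untreated library. Each PT2385 library was above each of the others. The log2 fold change was 2.07 ± 0.28 (adjusted p = 0.00273), 2.86 in thinned cells and 2.22 with the scaled gate, and it passed in both and with each library left out. Gbp8 rose by 0.46, and Gbp5 and Gbp9 fell by 0.44 and 0.59, but none of these 3 passed in thinned cells or with the scaled gate.

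Over all tested genes 2.18% rose and 4.86% fell. With all UMIs, the counts in the antigen presentation lists were too small to set them apart from that. Of 21 MHC class I genes 1 rose (the gene H2-Q7) and 0 fell, and of 12 MHC class II genes 0 passed, with medians of 0.08 and 0.15. In thinned cells 3 of 21 class I genes (H2-K1, H2-Q6 and H2-Q7) and 2 of 10 class II genes (H2-Ab1 and H2-Eb1) rose, with medians of 0.15 and 0.37. H2-Ab1, a class II chain, had 8155 and 7620 CPM with PT2385 and 8198 and 8024 CPM with the combination, against 5930 and 6707 CPM with ICB and 7233 CPM in the untreated library. Its log2 fold change was 0.22 ± 0.08 (adjusted p = 0.126), and 0.51 in thinned cells (adjusted p = 0.0154).

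Of 17 checkpoint and costimulation genes, 6 fell and 1 rose, with a median of -0.38. In thinned cells 1 fell and 1 rose (median -0.11), and with the scaled gate also 1 fell and 1 rose (median -0.46). Cd40, a receptor by which T cells activate macrophages, was at 105 and 118 CPM with PT2385 and 96.8 and 72.0 CPM with the combination, against 205 and 153 CPM with ICB and 182 CPM in the untreated library. It fell by 0.96 (adjusted p = 0.00485) and passed with the scaled gate at -0.85, but the thinned value was -0.33 (adjusted p = 0.471). Il15 fell by 0.98 (adjusted p = 0.00273) and was also lower in thinned cells, at -0.99 (adjusted p = 0.0216), while the scaled gate gave -0.71 (adjusted p = 0.0622). Il15ra fell by 0.75, Lgals9, a ligand of TIM-3, by 0.66 and the costimulator Cd86 by 0.41, and none of these 3 passed in thinned cells or with the scaled gate.

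Il18bp, a secreted protein that neutralises interleukin 18, was the one that rose. It was at 400 and 384 CPM with PT2385 and 238 and 344 CPM with the combination, against 109 and 113 CPM with ICB and 130 CPM in the untreated library. The groups were well apart. The log2 fold change was 1.43 ± 0.13 (adjusted p = 0.000510), 1.15 in thinned cells (adjusted p = 0.0110) and 1.36 with the scaled gate (adjusted p = 0.00140), and it passed with each library left out. Cd274 was at 0.25 ± 0.14 (adjusted p = 0.328).

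Monocyte genes were lower in all gates. Their summed level was lower with PT2385 in other macrophages as well, at 4379 to 5722.5 CPM against 7017 to 7446 CPM without it. Of 14 tested in the interferon-responsive cells, 9 fell and 0 rose, with a median of -0.82. In thinned cells 8 fell (median -0.64), with the scaled gate 6 (median -0.65), and without the untreated library 2. Vcan was at 22.8 and 39.3 CPM with PT2385 and 28.4 and 31.6 CPM with the combination, against 116 and 80.7 CPM with ICB and 66.5 CPM in the untreated library. It fell by 1.47 (adjusted p = 0.00366), in thinned cells by 1.69 (adjusted p = 0.0117), while the scaled gate gave -0.99 (adjusted p = 0.0606).

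The calcium-binding S100 family gene S100a4 was at 118 and 176 CPM with PT2385 and 292 and 234 CPM with the combination, against 761 and 444 CPM with ICB and 519 CPM in the untreated library. It fell by 1.499 (adjusted p = 0.00342), by 1.73 in thinned cells (adjusted p = 0.000398) and by 1.28 with the scaled gate (adjusted p = 0.0206). Without the untreated library its value was -1.22 (adjusted p = 0.0794). Ly6c2 fell by 0.75 but passed in neither other setting, and the fibronectin gene Fn1 fell by 1.36 and S100a6 by 0.96, both also past the threshold in thinned cells and with the scaled gate. Plac8 was at -0.61 ± 0.16 (adjusted p = 0.0510).

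Of 18 macrophage genes, 4 rose and 2 fell, with a median of 0.24. Mertk, a receptor for the uptake of apoptotic cells, was at 205 and 176 CPM with PT2385 and 136 and 156 CPM with the combination, against 78.6 and 81.9 CPM with ICB and 80.4 CPM in the untreated library. It rose by 0.98 ± 0.13 (adjusted p = 0.00273), by 1.25 in thinned cells and by 1.18 with the scaled gate. C1qc rose by 0.47 and C1qb by 0.38, and both passed in thinned cells and with the scaled gate. Trem2, a lipid receptor of macrophages, rose by 0.57. Without the untreated library 0 of the 18 passed, with a median of 0.10.

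Mrc1, the mannose receptor gene, fell by 1.89 (adjusted p = 0.0345), and here 1 library stands apart. It was at 19.9 and 25.4 CPM with PT2385 and 19.2 and 22.7 CPM with the combination, against 201 and 52.3 CPM with ICB and 44.4 CPM in the untreated library, so ICB pool 1 was far above the rest. In thinned cells the value was -2.23 (adjusted p = 0.125). Of 18 tested genes of the immunosuppressive myeloid list 4 fell and 2 rose (median -0.34), beside 4.86% and 2.18% of all tested genes. In thinned cells 2 of 15 fell and 2 rose, with a median of 0.35, so the direction of the median differs between the settings. Tgfb1, an immunosuppressive cytokine gene, fell by 0.77 and Il1rn, which encodes the interleukin 1 receptor antagonist, by 0.95, and both passed in each gate. Hmox1, the haem-degrading enzyme gene, rose by 0.83 and also passed in each gate.

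PT2385 blocks HIF-2, and transcripts of its target subunit were near the limit of detection in these cells. Epas1, which encodes that subunit, had 0 to 4.17 CPM and was not tested. Over all tested genes 4.86% fell and 2.18% rose. Of 28 tested hypoxia and glycolysis genes 2 fell and 0 rose, with a median of 0.04. Of 15 HIF and HIF-2-associated genes 1 fell and 0 rose, with a median of 0.06. These counts do not set either list apart from all tested genes, of which 7.05% passed. The genes of these lists that fell were Ddit4, a stress-induced inhibitor of mTOR, by 1.46, the transcriptional repressor Bhlhe40 by 1.40 and the cyclin gene Ccnd1 by 1.35. All 3 passed with the scaled gate, and in thinned cells Bhlhe40 passed, Ccnd1 did not (adjusted p = 0.244) and Ddit4 was not tested.

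Stress and handling genes also fell in part. Of 16 cell death and stress genes 5 fell and 0 rose, with a median of -0.37, among them Fas, a death receptor gene (-0.98), and Daxx, a histone chaperone gene (-0.85). Of 18 immediate early and dissociation genes 3 fell and 0 rose, with a median of -0.25, namely Zfp36, Btg2 and Nr4a1. None of either list passed in thinned cells or with the scaled gate. Of 10 conventional dendritic cell markers 4 were tested and 2 fell, Cd209a and Clec10a. Neither was tested in thinned cells, and with the scaled gate Cd209a passed. The list sum was 61.9 to 110 CPM with PT2385 and 107 to 176 CPM without it, 1 of the 10 was at 0, and their part in the other results was not tested.

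Other genes with the largest changes lie outside the interferon lists. Saa3, an acute-phase protein gene, was at 269 and 205 CPM with PT2385 and 104 and 647 CPM with the combination, against 24.97 and 79.0 CPM with ICB and 33.4 CPM in the untreated library, a log2 fold change of 2.79 ± 0.54 (adjusted p = 0.0135). Fabp5, a fatty acid carrier, rose by 2.02 and the noncoding RNA gene Airn by 2.33. Gpr183, an oxysterol receptor gene, fell by 2.01, Fdps, an enzyme of isoprenoid synthesis, by 1.88, and Eps8, an actin regulator, by 1.76. Fabp5 and Fdps passed in thinned cells and with the scaled gate, Gpr183 and Eps8 with the scaled gate only, and Saa3 in neither. Airn was not tested in thinned cells and did not pass with the scaled gate. The value of Eps8 was 16.5 and 17.7 CPM with PT2385 and 25.9 and 14.8 CPM with the combination, against 81.99 and 61.3 CPM with ICB and 52.9 CPM in the untreated library.

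Transcripts of the choroid plexus, the epithelium that makes cerebrospinal fluid, moved with the combination and with these calls. All 8 marker genes of that list passed as higher with PT2385, and their fitted folds rest on the combination pools. Ttr, which encodes transthyretin, had 94 and 10 UMIs in the interferon-responsive cells of the PT2385 pools, 7114 and 2208 in those of the combination, 123 and 262 in those of ICB and 1 in the untreated library. A single barcode held 95.8% of the Ttr UMIs in combination pool 1 and another 56.5% in pool 2. When the 13 interferon-responsive barcodes with at least 10 choroid plexus UMIs were left out, a choice made after the data were seen, 502 genes passed for PT2385 (122 rose, 380 fell, 491 of them shared), and the effectors had 35 falls and 2 rises with a median of -0.61. The monocyte list had 9 falls and a median of -0.79 in that setting.

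Few genes passed for ICB in these cells. Of 9666 genes 14 (0.145%) passed, and all 14 rose, while 628 had an unadjusted p under 0.05. The named ones were Enpp2 and Ttr, both choroid plexus genes, and without the 13 barcodes 1 gene passed, Ttr, at 5.89 ± 0.37 (edgeR, adjusted p = 6.21e-05). Tmx4, next by p, was at -0.96 and did not pass (adjusted p = 0.0555). Of 47 antiviral effectors, 0 passed, with a median of 0.15.

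The combination was also set against the untreated library alone. This shares its libraries with the comparisons above and assumes that the single untreated library would vary like the others. Of 10286 genes 16 (0.156%) passed, of which 11 rose (0.107%) and 5 fell (0.0486%), and 1134 had an unadjusted p under 0.05. Cxcl10 fell by 1.64, Ccl12 by 2.42, Smox, a polyamine oxidase gene, by 1.35, Ifrd1 by 0.92 and H3f3b, a histone H3.3 gene, by 0.79. Without the barcodes rich in choroid plexus transcripts 4 genes passed, namely Cxcl10 at -1.56 (adjusted p = 0.00303), Smox at -1.38, Ccl12 at -2.40 and Ttr at 9.56. Of 48 tested effectors 0 passed, with a median of -0.51.

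The interaction tests whether PT2385 acts differently with and without ICB. With edgeR 0 of 10286 genes passed (0%), 451 had an unadjusted p under 0.05, and DESeq2 also called 0. The smallest p values belonged to Grasp at 1.53, Rad51b at -2.53 and Mt1 at -1.24, which did not pass. Without ICB pool 2, 10 genes passed, and without combination pool 2, 1 passed, as it did in thinned cells. With no filter on low counts 75 passed.

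A model over both classes of macrophage, with the library as a block, tested whether PT2385 acts differently in interferon-responsive than in other macrophages. Of 11900 genes 14 (0.118%) passed, 4 with a more positive (0.0336%) and 10 with a more negative effect (0.084%) in the interferon-responsive cells, and 1158 had an unadjusted p under 0.05. Without the untreated library 3 genes passed, 1 of them among the 14, and without PT2385 pool 2 1 passed. Of 48 antiviral effectors 0 passed, with a median difference of -0.10 beside 0.001 for all genes. In thinned cells their median was 0.10 and 2 passed with a more positive effect, Oasl1 and Ifi44, and with the scaled gate the median was 0.04 and 0 passed, so the direction of the median differs between the settings. Of 22 genes of the interferon gamma list 0 passed, 20 were below 0 and the median was -0.37. In thinned cells 3 of that list passed with a more negative effect, Irf1, Gbp2 and Gbp5 (median -0.32), and with the scaled gate 0 passed (median -0.37). The monocyte list had 0 of 14, with a median of -0.25, and in thinned cells 1 passed.

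Cxcl10 was one of the 10. In other macrophages it was at 184 and 265 CPM with PT2385 and 198 and 328 CPM with the combination, against 387 and 395 CPM with ICB and 395 CPM in the untreated library, which is lower with the drug as well but by less than in the interferon-responsive cells. The difference of the effects was -0.94 on the log2 scale (adjusted p = 0.00607), but -0.11 in thinned cells (adjusted p = 0.899) and -0.53 with the scaled gate (adjusted p = 0.199). Il15ra was at 34.4, 29.2, 19.2 and 21.7 CPM in interferon-responsive cells of the 4 PT2385 libraries, against 36.5, 38.7 and 46.0 CPM in the 3 without it. In other macrophages it was at 21.7, 19.4, 15.0 and 20.2 CPM, against 13.0, 13.3 and 16.3 CPM. The level with PT2385 was lower in the interferon-responsive cells and mostly higher in the others, and the difference was -1.10 (adjusted p = 0.0142), with -1.03 in thinned cells (adjusted p = 0.261) and -1.08 with the scaled gate (adjusted p = 0.0424).

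Socs1 shows a like pattern with another shape. Interferon-responsive cells had 148, 154, 120 and 151 CPM with PT2385 against 158, 109 and 97.6 CPM without it, and other macrophages had 76.7, 87.8, 56.0 and 107 CPM against 39.9, 36.1 and 32.6 CPM. The difference of effects was -0.92 (adjusted p = 0.0149). Calhm6, a channel gene of activated macrophages, gave -0.63 (adjusted p = 0.0142) and Fndc3a -0.52 (adjusted p = 0.0170), and Il15 gave -0.68 (adjusted p = 0.0368). Cd63, a tetraspanin of lysosomes, gave 0.83 (adjusted p = 0.0378). Socs1 and Calhm6 passed in thinned cells and with the scaled gate, Cd63 with the scaled gate only, and Fndc3a and Il15 in neither. With the barcodes rich in choroid plexus transcripts left out of the interferon-responsive class, 7 genes passed. Among them were Cxcl10, Il15ra, Socs1, Calhm6 and Fndc3a, and Cd63 and Il15 were not among them. Such barcodes were not left out of the other macrophages. There the choroid plexus markers summed to 2135 and 2193 CPM in the combination pools and 1364 CPM in ICB pool 2, so this removal was one-sided.

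For ICB, 1 of 11900 genes (0.0084%) differed between the classes. It was Il12b, a subunit of interleukin 12. It was at 0 in the interferon-responsive cells of the combination and ICB libraries, and at 53.8 and 1.92 CPM in those of PT2385 and 3.85 CPM in those of the untreated library. Because 4 libraries were at 0, its fitted value is no measure of size, and PT2385 pool 1 alone supplied the high level. Trim30c (0.69), Chpt1 (0.66) and Anxa1 (-0.74) came next by p and did not pass. Of 48 antiviral effectors 0 passed, 46 were above 0 and the median was 0.32, beside 0.01 for all genes.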

How the data were processed

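Leukocytes sorted from GL261-bearing brains were profiled with 10x 3′ v3.1 chemistry. The authors deposited 1 matrix of raw UMI counts per library over 32285 genes; cellranger 7.0.0 is named per the file headers, while the submitters' processing notes name Cell Ranger 2.2.0, Seurat 5 and GRCm39. A barcode was kept if it showed 300 or more genes and no more than 10% of its UMIs were mitochondrial, and cells were then chosen by the UMI thresholds given with the results. The members and gene lists were chosen with earlier results of these data known. Doublets were scored and removed only as an alternative.

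Counts were summed per library and class (1014114 to 3892594 UMIs in the interferon-responsive cells) and tested in R 4.3.3 with edgeR 4.0.16 (TMM scaling, low-count filter, quasi-likelihood test, Benjamini-Hochberg adjustment), without the gate genes. DESeq2 1.42.0, other scaling, no count filter, other gates, a strict cell filter and leaving out each library were alternatives. The thinned gene fits, the gate scaled to depth and the removal of barcodes rich in choroid plexus transcripts were chosen after seeing the data. CPM is counts per 1000000 summed UMIs. Shares were compared by exact permutation of libraries in Python 3.11.15 with scipy 1.17.1. Promoters came from RefSeq (GRCm38.p6), a build other than that of the notes, and were matched by symbol only. Named genes were the 6 largest rises and 6 largest falls at a mean of at least 20 CPM, or the 3 smallest p where fewer than 3 passed, for cell classes the 12 largest folds each way, and members of the lists. Tested on simulated data for the PT2385 comparison (9401 genes, 200 of them changed), the fit recovered 68% of 2-fold and 92% of 4-fold changes with 9 false calls. Recovery of 2-fold and 4-fold changes was 56% and 92% for ICB and 31% and 84% for the combination against the untreated library. It was 64% and 84% for the difference of PT2385 effects between classes, and the interaction was not simulated. Changes of 2-fold can thus be missed, most of all for the combination. Results for a few genes of the lists are not reported here.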

Additional observations from a re-analysis of the deposited data

Results flagged for a closer look

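The PT2385 effect differed between interferon-responsive and other macrophages for 14 genes, of which 12 are named here, by a test of the difference itself with the library as a block (edgeR quasi-likelihood test). The difference, interferon-responsive minus other macrophages on the log2 scale, was -0.94 for Cxcl10, -1.10 for Il15ra, -0.92 for Socs1, -0.68 for Il15, -0.63 for Calhm6 and -0.52 for Fndc3a. It was -0.48 for Samhd1, -0.50 for Cers6, -0.52 for Mxd1 and -0.47 for Trafd1. It was 0.83 for Cd63 and 5.84 for Enpp2, whose UMIs lay almost wholly in the combination pools. Without the untreated library 3 genes passed, 1 of them among the 14, and without PT2385 pool 2 1 passed. In thinned cells the Cxcl10 difference was -0.11 (edgeR, adjusted p = 0.899). For Il12b the ICB effect differed by -10.7, a fitted value with 4 libraries at 0 that is no measure of size.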

How the results depend on the processing

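No paired analysis was possible because the replicate numbers only name pools of mice, and the untreated group has 1 library. The model over both classes of macrophage has the library as its block by design.

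For PT2385, 1253 genes passed without the count filter, 114 in thinned cells and 217 with the scaled gate, and 63 to 675 with 1 library left out. For ICB, 23 passed with DESeq2, 183 without the filter, 0 with doublets removed, 3 with an interferon sum of at least 5, and 1 each in thinned cells, with the scaled gate and without choroid-rich barcodes (1 to 31 with 1 library left out). For the combination against the untreated library, 59 passed with DESeq2, 421 without the filter, 1 with doublets removed, 4 without choroid-rich barcodes and 0 with a sum of at least 5, thinned or scaled (2 to 99). For the interaction, 75 passed without the filter and 1 in thinned cells (0 to 10).

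For the difference of PT2385 effects between classes, 26 passed with other scaling, 38 with DESeq2, 212 without the filter and 9 with doublets removed. The count was 35 with the strict cell filter, 50 in thinned cells and 7 without choroid-rich interferon-responsive barcodes (1 to 38). For the difference of ICB effects, 0 passed with DESeq2 and with doublets removed, 59 without the filter and 7 in thinned cells (0 to 7). The genes at least 2-fold apart between classes numbered 99, against 160 with a comparator at a sum of 0, 246 in thinned cells and 180 at a minimum of 1 CPM (89 to 109).

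The PT2385 share difference stayed negative in each setting, from -7.79 to -2.20 points with 1 library left out. The ICB share difference turned to -0.80 points over all kept barcodes, -1.11 at a sum of at least 5 and -0.24 with the scaled gate, and ran from -1.63 to 2.61 with 1 library left out. Ifit1 turned to 0.21 and Il12b to 0.60 in thinned cells. The cause was not tested. Of 100 named gene results in thinned cells 44 kept their call and direction and 52 no longer passed; without the untreated library 60 of 93 no longer passed.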
